A study of Rattus norvegicus with 6 samples.

Results

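The genes described here are 5 keratins of simple epithelia (Krt7, Krt8, Krt18, Krt19 and Krt20) and 4 proteins of the brush border (Vil1, Ezr, Myo1a and Espn), 9 of the 12340 genes that could be named in the table. They were taken by symbol, as genes of these 2 structures, and each matched 1 RefSeq transcript. RNA was taken from colonic epithelium (inner layer) in 6 Wistar rats, all adult males, each of which had lost its pineal gland by surgery, in the control group as well. 3 animals (numbers 4, 5 and 6) received melatonin at 1 mg/kg intraperitoneally and 3 (numbers 1, 2 and 3) received vehicle, 2.5% ethanol in PBS. Injections were given as subjective night began, and tissue was taken 4 h later. Expression is given as FPKM, a fragment count corrected for how long the transcript is and how deeply the library was sequenced, so that levels of genes of different length can be set side by side.

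Keratins form the intermediate filaments of epithelial cells. A filament is built from pairs of a type I chain (here keratins 18, 19 and 20) and a type II chain (here keratins 7 and 8), which give the cell its mechanical strength. The brush border is the carpet of microvilli on the luminal face of an absorptive cell. Each microvillus holds a bundle of actin filaments that villin and espin tie together, that ezrin fastens to the membrane, and that the motor myosin 1a links sideways to it.

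Stretches of promoter are shown for the type II keratin Krt8, its adjacent type I partner gene Krt18, the surface keratin Krt20 and villin, because they pair the most abundant keratin with its scarcer partner and set a surface keratin beside the brush border gene best known as its marker. Of the 9 genes, 7 had a promoter in the RefSeq table (build GRCr8), and Krt7 and Krt19 did not. The 250 bases before each annotated start were searched on both strands for TATAAA, for GGGCGG and for CACGTG. Capitals mark the matched letters, with 20 bases on either side.
Krt8, chr7:135010418-135010465, minus strand: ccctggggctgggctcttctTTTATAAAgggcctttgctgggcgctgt
Krt20, chr10:84890309-84890354, minus strand: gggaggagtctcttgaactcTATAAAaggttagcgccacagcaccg
Krt18, chr7:135036064-135036109, plus strand: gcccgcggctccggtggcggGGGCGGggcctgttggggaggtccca
Vil1, chr9:83440174-83440219, plus strand: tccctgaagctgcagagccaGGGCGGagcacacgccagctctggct

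TATAAA was found before Krt8, where it overlaps its own match on the other strand, and before Krt20, and in none of the other 5 promoters. Of all 33469 promoters in the table, 12.9% held it. GGGCGG was found before Krt18, Vil1, Ezr and Espn, against 30.5% of all promoters, and CACGTG was found before Ezr, against 5.6%. The Myo1a window held none of the 3. The match before Krt20 begins 49 bases before the annotated start, and the match on the same strand as the gene before Krt8 begins 104 bases before it. The annotated start of Krt8 falls on an ATG, so its distance is counted from there. GC content of the 250 bases was lowest for Krt20, at 47.2%, and highest for Ezr, at 74.4%, beside a median of 51.2% over all promoters. These are matches of letters and were not tied to any measurement.

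The libraries were of similar size, with 3290000 to 3600000 mapped fragments each, an estimate read from the spacing of low FPKM values. The general epithelial markers Epcam and Cldn3 stood at 1136.42 to 1252.30 and 630.04 to 871.00 FPKM over the 6 animals, and Guca2a, a peptide of colonocytes at 3768.56 to 5481.40. Epcam measured 1252.30, 1239.37 and 1240.10 in vehicle animals against 1201.94, 1136.42 and 1145.96 in melatonin animals. Every melatonin animal lay below every vehicle animal (log2 change -0.10 ± 0.08, limma adjusted p = 0.972). Epcam was the 1 of 5 general epithelial markers placed so, beside 4.33% of all features. Summed over their measured genes, the 5 general epithelial markers lay at 3202 to 3337 FPKM after vehicle and 3220 to 3692 after melatonin, those of colonocytes at 7486 to 8846 and 6783 to 8001, and those of goblet cells at 7934 to 10090 and 7811 to 9092. Markers of crypt base and dividing cells lay at 36.5 to 65.6 and 43.2 to 64.5, of enteroendocrine cells at 150.1 to 199 and 171 to 198, of tuft cells at 7.88 to 17.1 and 8.45 to 9.09, and of red blood cells at 128 to 171 and 77.4 to 133. Markers of smooth muscle lay at 8.37 to 12.7 FPKM after vehicle and 9.61 to 14.3 after melatonin, those of fibroblasts at 6.77 to 9.61 and 8.09 to 11.5, and those of endothelium at 2.14 to 3.90 and 2.44 to 4.53. By list, the 2 with the highest mean were, for muscle, Des (3.00 to 7.02 FPKM) and Myh11 (2.36 to 3.95). For fibroblasts they were Vim (3.46 to 9.64) and Col1a2 (1.20 to 3.09). For endothelium they were Pecam1 (1.92 to 3.93) and Vwf (0.10 to 0.42). Other defining genes were picked out after their values were seen. Tagln of muscle lay at 1.29 to 3.83. Acta2, Actg2 and Col3a1 stood at no more than 0.21, 0.23 and 0.06, each listed at 0 in at least 3 animals. Leukocyte markers lay at 69.2 to 171 and 97.5 to 644, with the highest sum in melatonin animal 5 (Cd74 at 630.83). All 4 tested leukocyte markers had a positive log2 change (median 0.91, 0 called). All 4 tested red blood cell markers had a negative one (median -0.42, 0 called). Cd3e and the globin gene Hbb-b1, picked out after their values were seen, did not overlap between the groups. Cd3e lay at 0.86 to 1.97 FPKM after vehicle and 2.60 to 5.07 after melatonin, on 3 to 18 estimated reads. Hbb-b1 lay at 3.24 to 5.69 and 1.24 to 2.63, on 3 to 12. Each was the 1 of 4 tested markers of its list without overlap, beside 8.38% of all features. Squamous epithelial markers lay at 1.20 to 7.96 and 4.00 to 7.02 over 4 measured markers. No marker with a matched row was listed at 0 in all animals, and 0 of 4 mesothelial markers matched a row. Unmatched markers of other lists included Muc2 of goblet cells and Top2a of dividing cells, so the sums leave them out. The part of these cells in the values below was not tested, and in bulk tissue fewer cells of a type and less RNA per cell cannot be told apart.

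Of the 5 keratins, 3 were among the most abundant transcripts of the colonic epithelium, and for each of the 9 genes the values of the groups overlapped. Krt8 stood at 3352 ± 265 FPKM over the 6 animals (mean ± SD), rank 7 of the 10137 genes and unmatched transcripts tested. Krt19 followed at 2589 ± 275 (rank 11) and Krt20 at 1333 ± 226 (rank 36). Ezr stood at 387 ± 20.8, Vil1 at 383 ± 28.9, Krt18 at 317 ± 33.1 and Myo1a at 265 ± 12.9. Espn stood at 43.9 ± 3.85 and Krt7 at 11.5 ± 2.36. The ranges of Krt8, Krt19 and Krt20 did not overlap with each other or with that of Ezr, and the same held for Myo1a, Espn and Krt7. Ezr and Vil1 could not be ordered, with Ezr above Vil1 in 2 of 6 animals. Vil1 lay above Krt18 in 6 of 6 animals and Krt18 above Myo1a in 5 of 6, although their ranges overlapped.

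**Figure D1:**
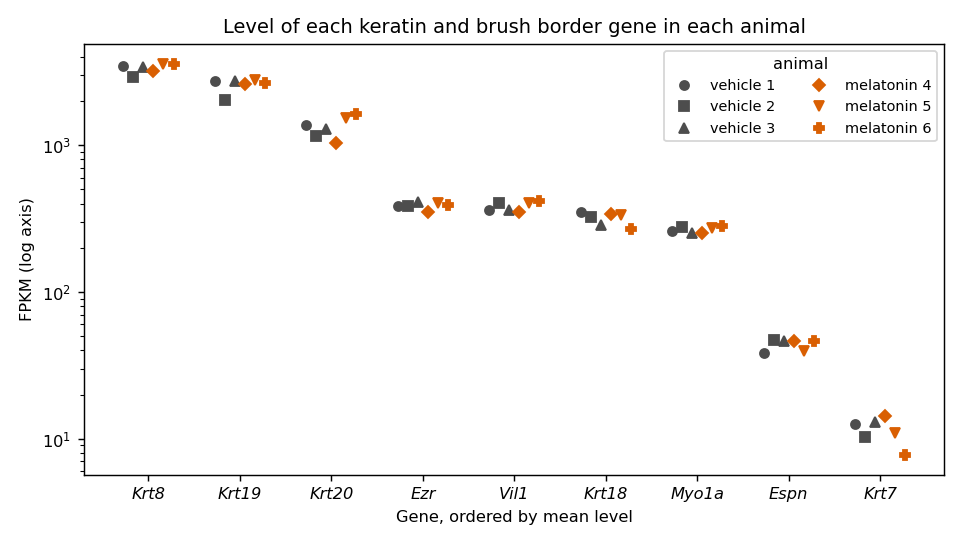
FPKM on a log axis of each keratin and brush border gene in each of the 6 animals, genes ordered by mean level, vehicle animals in grey and melatonin animals in orange. Krt8 lies between 2894.63 and 3592.44 and Krt7 between 7.72 and 14.35, and the animals of both groups overlap for every gene.

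With limma on log2(FPKM + 1) across all 10137 features, 0 of the 9 genes were called at an adjusted p under 0.05, and 0% of all features were. At an unadjusted p under 0.05 the count was again 0 of 9, beside 3.75% of all features, and limma voom on estimated reads gave 0 of 9 at either threshold. The groups overlapped for each of the 9 genes. Every melatonin animal lay above every vehicle animal for 0 of 9, beside 4.04% of all features, and below for 0 of 9, beside 4.33%, together 8.38%. The smallest adjusted p over the features that passed the filter was 0.182, and the members are read by their values and intervals. The animals are separate, and with 3 against 3 no exact permutation test of a single value can go below p = 0.1.

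Krt8 is the main type II keratin of simple epithelia. Its level was 3449.26, 2894.63 and 3394.83 FPKM in vehicle animals 1, 2 and 3 and 3204.54, 3577.37 and 3592.44 in melatonin animals 4, 5 and 6. Vehicle animal 2 was the lowest of all and melatonin animals 5 and 6 the highest, with melatonin animal 4 below vehicle animals 1 and 3. The difference on the log2 scale was 0.09 ± 0.11 (SE; 95% interval -0.16 to 0.35; limma adjusted p = 0.974). On the FPKM + 1 scale that interval spans 0.896-fold to 1.27-fold.

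Krt7, the second type II chain, is best known from the lining of ducts. It measured 12.53, 10.25 and 13.09 in vehicle animals against 14.35, 11.02 and 7.72 in melatonin animals. Melatonin animals held both the highest value (animal 4) and the lowest (animal 6). Melatonin minus vehicle gave a log2 change of -0.14 ± 0.22 (95% interval -0.64 to 0.37; limma adjusted p = 0.974), the widest interval of the 9, and without melatonin animal 6 it was 0.075. These values rest on 37 to 66 estimated reads per library, so that counting error alone comes to 16.5% at the lowest. Krt8 made up 99.55% to 99.79% of the summed type II level in every animal.

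Krt19, the type I keratin that lacks the usual tail domain, measured 2735.53, 2042.75 and 2715.56 in vehicle animals against 2614.41, 2784.95 and 2642.33 in melatonin animals. Vehicle animal 2 stood alone at the bottom, and the other 5 lay within 2614.41 to 2784.95. The log2 change was 0.11 ± 0.13 (95% interval -0.19 to 0.41; limma adjusted p = 0.974), and without vehicle animal 2 it was -0.03.

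Krt20 is a keratin of the differentiated upper crypt and surface cells. It measured 1361.48, 1146.16 and 1292.25 in vehicle animals against 1034.96, 1533.84 and 1631.10 in melatonin animals. Melatonin animal 4 lay below every vehicle animal and melatonin animals 5 and 6 above every one. The coefficient of variation was 8.68% among vehicle and 22.9% among melatonin animals. The difference on the log2 scale was 0.12 ± 0.17 (95% interval -0.28 to 0.52; limma adjusted p = 0.974). Its size turned on single animals: without melatonin animal 4 it was 0.32 (limma unadjusted p = 0.0203, adjusted p = 0.377), and without melatonin animal 6 it was -0.004. In the fit without melatonin animal 4, 1156 of 10125 features had an unadjusted p under 0.05, and 1 of the 9 members.

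Krt18 is the usual filament partner of Krt8, and the 2 are adjacent protein-coding genes in the annotation. It measured 350.89, 322.04 and 287.25 in vehicle animals against 341.80, 331.85 and 266.28 in melatonin animals. The lowest value was in melatonin animal 6 and the highest in vehicle animal 1. Melatonin minus vehicle gave a log2 change of -0.03 ± 0.12 (95% interval -0.32 to 0.25; limma adjusted p = 0.984). Krt8 exceeded Krt18 by 8.99-fold (vehicle animal 2) to 13.5-fold (melatonin animal 6), a comparison of FPKM levels per length. RefSeq names 6 pseudogenes and 1 similar gene for Krt18, 1 pseudogene each for Krt8, Vil1 and Ezr, and 1 similarly named gene for Espn. None of these matched a row, so how the authors' counting shared reads with them is uncertain.

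Type I and type II chains pair in the filament, so their transcript pools were set side by side within each animal, where the scaling of a library cancels. The summed type I level was 4448, 3511 and 4295 FPKM after vehicle and 3991, 4651 and 4540 after melatonin. The summed type II level was 3462, 2905 and 3408, and 3219, 3588 and 3600. Both pools were lowest in vehicle animal 2. The ratio of type I to type II was 1.29, 1.21 and 1.26 after vehicle and 1.24, 1.30 and 1.26 after melatonin. No ratio of other abundant genes was set beside it, so how narrow this range is was not tested. The difference in log2 ratio was 0.02 (two-sided exact permutation p = 0.6). Within type I, Krt19 took 58.2% to 65.5%, Krt20 25.9% to 35.9% and Krt18 5.87% to 9.17%. Melatonin animal 4 had the highest Krt19 share and the lowest Krt20 share, and melatonin animal 6 the highest Krt20 share and the lowest Krt18 share.

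**Figure D2:**
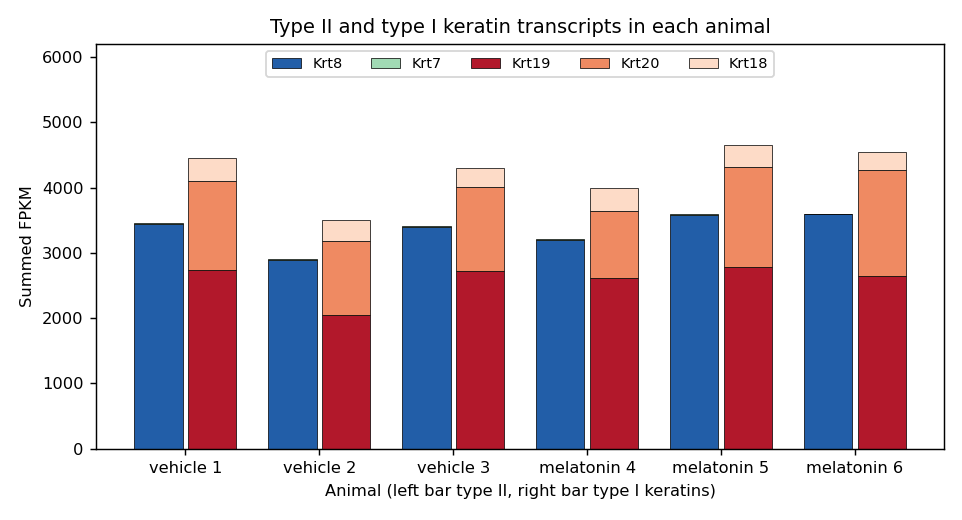
Summed FPKM of type II keratins (left bar) and type I keratins (right bar) in each animal, stacked by gene. Type II is almost wholly Krt8, and the type I bar is 1.21 to 1.30 times the type II bar in every animal.

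The 4 brush border genes varied less between animals than most genes with at least 10 FPKM. Over the 6540 features with a mean of at least 10 FPKM, the median coefficient of variation across the 6 animals was 12.3%. Myo1a stood at 4.86%, Ezr at 5.38%, Vil1 at 7.55% and Espn at 8.77%, and 4.75%, 6.73%, 18.2% and 25.9% of those features varied less. Among the keratins, Krt8 (7.90%), Krt18 (10.4%) and Krt19 (10.6%) lay below the median, and Krt20 (16.9%) and Krt7 (20.5%) lay above it. High counts also lower this measure, so it is given as a description.

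Villin, which bundles and at high calcium severs actin filaments, measured 361.34, 403.71 and 361.47 in vehicle animals against 349.74, 405.42 and 417.91 in melatonin animals. Melatonin animal 4 was the lowest of the 6, and vehicle animal 2 lay close below melatonin animals 5 and 6. The log2 change was 0.06 ± 0.10 (95% interval -0.18 to 0.29; limma adjusted p = 0.976). Vil1 was 27.0 to 51.1 times the level of Vill, the villin-like gene.

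Espin, a second crosslinker of the microvillus bundle, measured 38.27, 46.84 and 46.16 in vehicle animals against 46.20, 39.72 and 46.36 in melatonin animals. In each group a single animal was low (vehicle animal 1 and melatonin animal 5) and the others lay within 46.16 to 46.84. The difference on the log2 scale was 0.01 ± 0.12 (95% interval -0.27 to 0.30; limma adjusted p = 0.993).

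Ezrin links actin to the membrane and is regulated by phosphorylation of its tail. It measured 386.47, 386.05 and 407.99 in vehicle animals against 348.37, 402.02 and 389.09 in melatonin animals. Only melatonin animal 4 lay outside the vehicle range. Melatonin minus vehicle gave a log2 change of -0.05 ± 0.09 (95% interval -0.26 to 0.15; limma adjusted p = 0.976). Ezr made up 93.1% to 96.0% of the summed level of ezrin, radixin and moesin, with Rdx at 16.09 to 23.75 FPKM and Msn at 0.41 to 2.22.

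Myosin 1a, the brush border motor, measured 258.75, 277.05 and 250.85 in vehicle animals against 252.20, 272.79 and 279.92 in melatonin animals, and the groups interleaved. The log2 change was 0.03 ± 0.09 (95% interval -0.17 to 0.24; limma adjusted p = 0.982). Of the summed level of the class I myosins Myo1a to Myo1e, Myo1a took 46.7% to 48.0% and Myo1d 34.2% to 36.1% in every animal. These family shares, and those of ezrin and villin, were chosen after the values were seen.

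**Figure D3:**
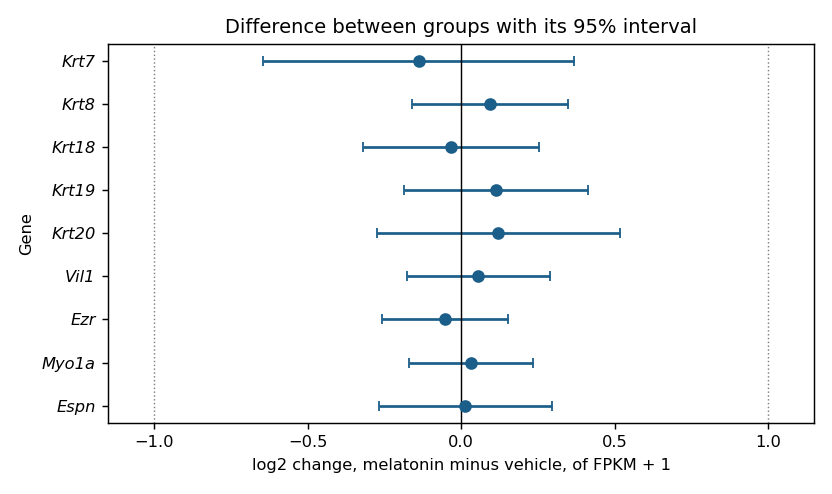
Log2 change (melatonin minus vehicle) of FPKM + 1 for each gene, with points for the limma estimate and bars for its 95% interval, and dotted lines at a change of 1 in either direction. Each interval includes 0 and none reaches 1, the widest being that of Krt7 (-0.64 to 0.37).

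Brush border and keratin genes were compared within each animal by the ratio of their summed FPKM. The ratio was 0.132, 0.174 and 0.138 after vehicle and 0.138, 0.136 and 0.139 after melatonin. Vehicle animal 2 stood apart, with the lowest keratin sum (6416 FPKM, against 7210 to 8239 in the others) and a brush border sum of 1114 within the range of the others (996 to 1133). The difference in log2 ratio was -0.09 (two-sided exact permutation p = 0.8), and without vehicle animal 2 it was 0.03. Across the 9 genes, melatonin animal 6 held the highest value for 4 and the lowest for 2, while melatonin animal 4 held the highest for 1 and the lowest for 3. Relative to the vehicle mean, the median over the 9 genes was -0.01, 0.06 and 0.09 in melatonin animals 4, 5 and 6 and 0.07, -0.03 and 0.05 in vehicle animals 1, 2 and 3.

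**Figure D4:**
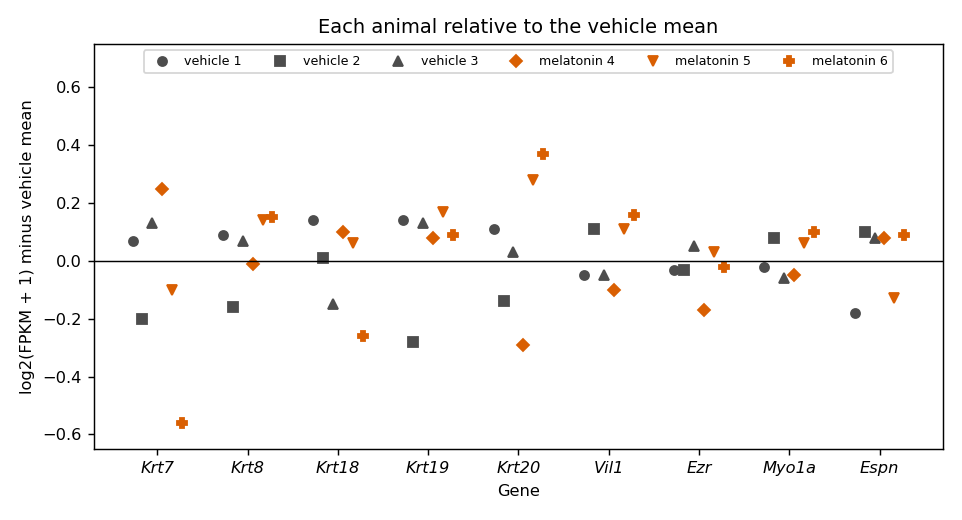
Difference of each animal's log2(FPKM + 1) from the vehicle mean of the gene, vehicle animals in grey and melatonin animals in orange. Melatonin animal 4 and animals 5 and 6 lie on opposite sides of 0 for Krt20 (-0.29, 0.28 and 0.37), and the brush border genes keep within -0.18 and 0.16.

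Other components of the same structures are given from lists chosen by function, and 0 of their tested genes were called in either direction (0% of all features). Of other microvillus core and membrane linker genes, 25 of 28 had a row and 23 were tested. Eps8, Eps8l2 and Cobl matched no row. The log2 change was positive for 11 and negative for 12, and the median was 0.00 beside -0.02 over all features. Beta-actin, Actb, measured 3168.08, 2987.01 and 3133.54 FPKM in vehicle animals against 2710.34, 3324.25 and 3836.42 in melatonin animals. Actg1, the other cytoplasmic actin, was listed at 1554.28, 1237.42 and 1492.62, and 1289.57, 1608.49 and 2484.43. For both actins melatonin animal 6 was the highest and melatonin animal 4 was below vehicle animals 1 and 3. Slk, a kinase that phosphorylates ezrin, was listed at 58.19, 56.91 and 62.96 and at 67.57, 63.28 and 74.27, with every melatonin animal above every vehicle animal (log2 change 0.20 ± 0.10, limma adjusted p = 0.972). It was the 1 gene of the 23 placed so, beside 4.04% of all features, and 0 of the 23 had an unadjusted p under 0.05. The scaffold gene Nherf4 was listed at 5.49, 6.31 and 5.15, and 6.46, 1.74 and 3.35.

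Of the genes of intermicrovillar adhesion and apical trafficking, 12 of 14 were tested, and Cdhr2 and Myo6 matched no row. Of those tested 7 were positive and 5 negative, with a median log2 change of 0.04. The adhesion protocadherin Cdhr5 stood at 816 ± 80.6 FPKM after vehicle and 828 ± 165 after melatonin (n = 3 each), and the light chain Calml4 at 231 ± 17.1 and 242 ± 29.5. Stx3, the syntaxin of apical vesicle fusion, measured 18.12, 17.96 and 16.37 in vehicle animals against 24.76, 22.14 and 22.75 in melatonin animals. Its groups did not overlap (log2 change 0.39 ± 0.12, limma unadjusted p = 0.0103, adjusted p = 0.972). The Stx3 values rest on 58 to 87 estimated reads per library, with a counting error of 13.1% at the lowest. The coefficient of variation, 5.5% among vehicle and 5.9% among melatonin animals, lay below that error, so the standard error may be too small. Myo5b, the motor of apical recycling vesicles, was listed at 49.84, 48.25 and 51.69 and at 53.17, 55.25 and 57.47, also without overlap (log2 change 0.14 ± 0.09, limma adjusted p = 0.972). These were the 2 of 12 genes without overlap, beside 8.38% of all features, and Stx3 was the 1 of 12 with an unadjusted p under 0.05, beside 3.75%. Both were named because their p values were the 2 smallest of the list.

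Of the terminal web, the actin and myosin mesh under the microvilli, 14 of 16 genes had a row and 11 were tested. Sptbn1 and Sptbn5 matched no row. Of the tested genes 7 were positive and 4 negative, with a median log2 change of 0.01. The myosin light chain Myl12b stood at 964 ± 21.1 and 969 ± 62.7 FPKM. The actin crosslinker Actn4 measured 440.03, 366.80 and 391.46 in vehicle animals against 387.58, 529.52 and 581.77 in melatonin animals, and the tropomyosin Tpm4 at 199.74, 168.90 and 206.19, and 205.41, 232.28 and 248.79. In both, melatonin animals 5 and 6 lay above every vehicle animal and melatonin animal 4 within their range, the same placing of animals as for Krt8 and close to that for Krt20.

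Of keratin linkers and desmosome genes, which anchor keratin filaments at cell contacts, 10 of 18 were tested. Those not tested, Dsp and Dsg2 among them, matched no row, so their levels are unknown. Of the tested genes 6 were positive and 4 negative, with a median log2 change of 0.03. Plakoglobin, Jup, stood at 177 ± 6.73 and 191 ± 20.8 FPKM, and the desmosomal cadherin Dsc2 at 125 ± 11.7 and 130 ± 14.5. The plakophilin Pkp2 stood at 46.4 ± 3.86 and 40.6 ± 1.79, and the nuclear and desmosome-associated protein Pnn at 65.3 ± 7.22 and 56.4 ± 4.43. Of 30 other keratins 17 had a row and 2 reached a mean of 1 FPKM. Krt14, a basal-layer keratin, was listed at 3.94, 0.93 and 6.88, and 5.89, 4.81 and 3.94, and Krt23 at 0.91, 0.25 and 3.67, and 2.56, 2.26 and 0.68. Both were listed lowest in vehicle animal 2. Krt14 rests on only 4 to 34 estimated reads per library and Krt23 on 1 to 16, so this placing is uncertain.

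Of enzymes carried on the brush border membrane, 9 of 13 were tested, 2 positive and 7 negative, with a median log2 change of -0.13. Treh matched no row. The meprin subunit Mep1a measured 384.37, 389.95 and 386.79 FPKM in vehicle animals against 385.19, 280.78 and 298.29 in melatonin animals. Melatonin animals 5 and 6 were low and melatonin animal 4 was at the vehicle level (log2 change -0.28 ± 0.12, limma adjusted p = 0.972). Its partner Mep1b stood at 209 ± 22.2 and 207 ± 35.4. The aminopeptidase Enpep was listed at 1.18, 4.91 and 3.88, and 1.82, 0.44 and 0.07, and the groups overlapped (log2 change -1.28 ± 0.48, limma unadjusted p = 0.0278, adjusted p = 0.972). These values rest on only 1 to 61 estimated reads per library. Enpep was the 1 of 9 tested enzymes with an unadjusted p under 0.05, beside 3.75% of all features.

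**Figure D5:**
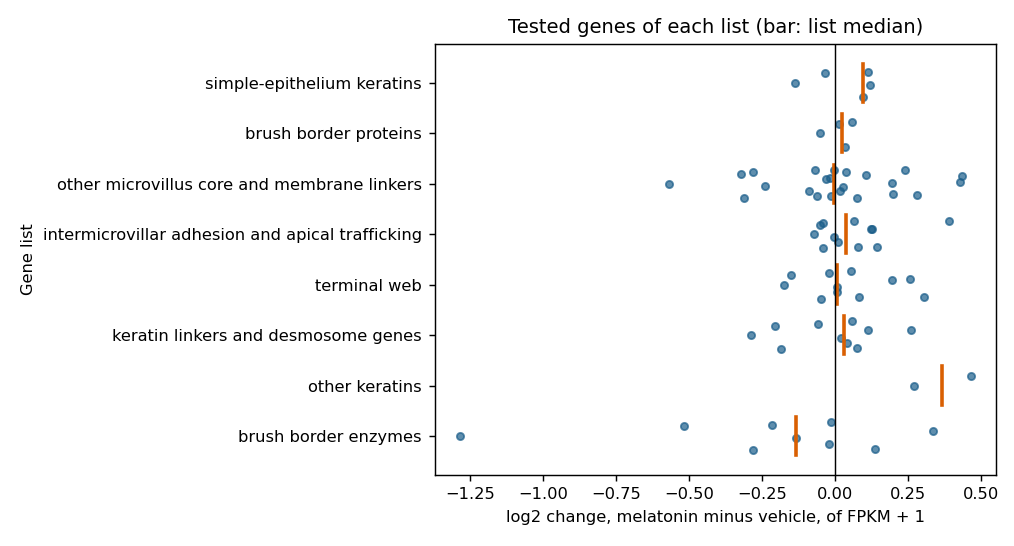
Log2 change (melatonin minus vehicle) of FPKM + 1 of each tested gene in the lists, points for genes and orange bars for list medians. The 5 keratins and 4 brush border proteins keep within -0.14 and 0.12, and the lowest point is Enpep at -1.28, on 1 to 61 estimated reads.

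Krt7 varied most of the 9 genes over the 6 animals (SD 0.29 on the log2 scale). The genes whose pattern over the animals lay closest to it, by the root mean square difference of centred log2 values among 6200 named genes with at least 10 FPKM, were Tob2 (0.05), Phf23 (0.05), Usp16 (0.06), Mycbp2 (0.07) and Rdm1 (0.07). Tob2 measured 27.76, 23.79 and 30.57 FPKM in vehicle animals against 33.15, 26.29 and 19.67 in melatonin animals, with the same highest and lowest animals as Krt7. Search over so many genes finds close patterns readily, and 6 animals are few.

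The authors' deposited table gives log2 ratios of group means between -0.12 (Krt7) and 0.14 (Krt20) for the 9 genes. In the authors' deposited table the score headed as a probability lay between 0.091 (Espn) and 0.333 (Krt20).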

How the data were processed

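RNA of 6 animals was sequenced, 3 per group. Libraries were made from poly(A) RNA with random primers and no described strand marking, per the labels' protocols. The authors deposited FPKM values per RefSeq transcript, using RSEM, Bowtie2, BWA (0.7.10-r789) and rn6 in roles that the submitters' processing notes do not give. Their table also holds group means in FPKM, a log2 ratio made by the authors and a score whose tool is not stated. Transcripts were matched by accession to RefSeq symbols (GRCr8, 12883 of 13647), summed per gene, filtered at a mean of 1 FPKM and tested with limma 3.58.1 in R 4.3.3 (mean trend, two-sided, Benjamini-Hochberg over 10137 features) on log2(FPKM + 1), which understates changes of low genes. The design named counts first, but the table holds FPKM. The procedure was tested on simulated data with larger changes than those of the members, so that test does not bear on changes as small as theirs.

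Depth was estimated from low values of short transcripts: with 36 bases taken off the length, 81.9% to 91.2% of 57 to 83 values per library lay within 0.1 of a whole read. The members and lists were chosen with earlier results of these data known. Named genes were the 9 members and, per related list, the 2 with the highest mean and the 2 with the smallest p, and per marker list the 2 with the highest mean and any defining marker at 0. Cell type markers are given mostly as sums, and genes named outside the rule are marked as picked out after their values were seen. Alternatives were other scalings, filters, pseudocount, weights, voom, unsummed transcripts and leaving out each animal.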

Additional observations from a re-analysis of the deposited data

How the results depend on the processing

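Over 16 alternatives the 9 genes gave 144 log2 changes, of which 130 kept their direction, 14 turned it and 0 passed the threshold. The other filters, unsummed transcripts and the fit without the mean trend could not alter a member's log2 change. Directions kept under these were fixed in advance and say nothing about stability. Scaling to 5 general epithelial genes turned Vil1 (-0.029), Myo1a (-0.052) and Espn (-0.071), and moved the median over all features from -0.02 to -0.10. Array quality weights turned Krt18 (0.040) and Espn (-0.082). With an animal left out, Krt7 ranged from -0.333 (without melatonin animal 4) to 0.075 (melatonin animal 6), Krt18 from -0.110 (vehicle animal 3) to 0.078 (melatonin animal 6), with 0.034 without vehicle animal 1, and Krt19 from -0.025 (vehicle animal 2) to 0.186 (vehicle animal 1). Krt20 ranged from -0.004 (melatonin animal 6) to 0.324 (melatonin animal 4), Ezr from -0.095 (melatonin animal 5) to 0.008 (melatonin animal 4) and Espn from -0.078 (vehicle animal 1) to 0.085 (melatonin animal 5), with -0.022 and -0.024 without melatonin animals 4 and 6. Vil1 ranged from 0.006 (melatonin animal 6) to 0.134 (melatonin animal 4) and Myo1a from 0.002 (vehicle animal 3 or melatonin animal 6) to 0.077 (melatonin animal 4). Krt8 kept its direction under all 16, from 0.01 to 0.15. The cause was not tested.

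Over all features the count called was 0, and it was 1 with no filter on low values and 1 without the mean trend. Leaving out an animal gave 0 to 4 (3 without vehicle animal 1, 4 without melatonin animal 4). The count called among the 9 genes and among the related lists was 0 under every alternative. Without melatonin animal 4, 1156 of 10125 features had an unadjusted p under 0.05, and 1 of the 9 members did (Krt20). With all animals the count was 380 of 10137 features and 0 members. With array quality weights it was 1172 of 10137 features and 0 members. With an animal left out, the difference in log2 ratio (melatonin minus vehicle) of type I to type II keratins ranged from -0.008 to 0.036. That of brush border to keratins ranged from -0.170 to 0.027. Both turned direction without vehicle animal 2 (-0.008 and 0.027), and the first also without melatonin animal 5 (-0.001). With the mean of log2 values in place of the sum the first was 0.089 and the second -0.019, and without Krt8, which leaves Krt7 alone as type II, they were 0.264 and -0.100, against 0.017 and -0.093. No paired analysis was possible because the vehicle animals carry numbers 1 to 3 and the melatonin animals 4 to 6, so no number is shared. At this depth Krt7 rests on 37 to 66 estimated reads, and a difference within its interval is not detectable.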
